A study of Mus musculus with 10 samples.

Results

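The genes of the translation machinery were followed in m. quadriceps femoris of 5 mouse inbred strains. A feature, which is the mean of the duplicate spots of one oligonucleotide, was taken if its single gene symbol in the annotation of the array began with Rpl, Rps (not Rps6k), Eif or Eef. This gave 76 of the 7697 features, which stand for 71 genes: 27 features of the large ribosomal subunit (26 genes), 16 of the small subunit (15 genes) and 33 of initiation and elongation factors (30 genes). All 76 were tested, because no filter on low values was applied. The choice rests on gene names and not on the measured values.

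The strains were CBA (CBA/CaOlaHsd), BL10 (C57Bl/10ScSnOlaHsd), BL6 (C57Bl/6JOlaHsd), DBA (DBA/2OlaHsd) and BALB (BALB/cOlaHsd). All mice were males that arrived at 6 weeks and were killed at 8 weeks, and 2 individual animals represented each strain. Labelled cDNA of 2 animals of different strains, one in Cy5 and one in Cy3, was hybridised to each of 10 arrays of spotted oligonucleotides. For 2 arrays every value is the same although the labels differ, namely BL6 animal 2 (written BL6 2) against CBA 1 and the pair BALB 1 against CBA 2, and neither was used. Of the 8 remaining arrays, 3 join CBA 1, BL10 1, BALB 2 and BL6 2, and 5 join CBA 2, BL10 2, DBA 1, BL6 1, DBA 2 and BALB 1. Each CBA animal thereby kept 1 array, in Cy5 and against BL10, so that every value for CBA depends on the estimated dye effect, the part of a gene's ratio that follows Cy5 over Cy3 on all arrays.

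All values are ratios between strains on the log2 scale, where 1 is a 2-fold difference. They hold no level of a gene, and the abundance of different genes cannot be compared. A strain difference is the fitted value of a strain minus the mean of the other 4 strains, given with its standard error (SE). An animal level is the value of one animal relative to the CBA, BL10, BL6 and BALB animals joined to it by arrays, after subtraction of the dye effect. As the same dye effect is subtracted for both animals of a strain, 2 close animal levels do not speak for the dye effect. The strains were compared with limma's moderated F test, and p-values were adjusted after Benjamini and Hochberg over all 7697 features, with a false discovery rate (FDR) of 10% as the threshold. The labels do not say how the RNA samples were handled beyond the animal, and in bulk tissue fewer cells of a type and less RNA per cell cannot be told apart.

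The correlation between duplicate spots was 0.646 to 0.853 on the 8 arrays across features, and the SD of their log2 difference ranged between 0.197 and 0.465. That muscle genes were present could not be checked, since a ratio holds no level. Medians of the marker genes differed between strains: those of fast muscle fibres (8 features) lay at −0.39 in CBA, −0.13 in BL10, 0.07 in BL6, 0.32 in DBA and 0.49 in BALB, and those of adipocytes (7 features) at 1.41, 0.95, −0.68, −0.69 and −0.37. The adipocyte features did not go together. In CBA, Fasn had 2.58, Scd1 2.22, Car3 1.83, Cidec 1.41 and Fabp4 0.24, but Adipoq had −0.05 and Lep −0.24. In BL6, Adipoq had 0.14 and Lep 0.24, and the others lay below 0. The adipocyte medians of the 2 animals of a strain were far apart in BL10 (−0.019 and 1.25), BL6 (−1.53 and 0.12) and DBA (−0.13 and −1.68), so that single animals carried much of these strain values. The medians of 8 fibroblast and matrix features were 0.43 in CBA, 0.16 in BL10, −0.61 in BL6, −0.17 in DBA and 0.11 in BALB. The medians of the slow fibre, red blood cell, leukocyte, endothelium and nerve markers ranged from −0.35 to 0.34. Their part in the values of the translation genes was not tested.

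A ribosome joins a small subunit, which reads the mRNA, to a large subunit, which forms the peptide bonds, and each holds ribosomal RNA and many proteins made in near-equal numbers. Initiation factors (eIF) bring the initiator tRNA and the mRNA cap to the small subunit, and elongation factors (eEF) deliver the aminoacyl-tRNAs and move the ribosome along. In muscle, translation is coupled to growth and feeding through mTOR, which acts on the eIF4E-binding proteins and on the S6 kinases. The mRNAs of ribosomal proteins and of several elongation factors belong to one class that is translated or stored together.

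Promoter sequences in RefSeq (GRCm38.p6, 250 bases before to 50 bases after the annotated start) were found for 56 of the 71 genes, as 70 windows. They are shown here because ribosomal protein genes are known for sharing short promoter motifs. The letters CCGGAAG, as bound by ETS factors, or their reverse complement CTTCCGG were found in 7 of 13 windows of the small subunit (53.8%), in 5 of 25 of the large subunit (20%) and in 11 of 32 of the factors (34.4%), against 8.86% of all 32851 promoter windows. AAGATGG or CCATCTT, as in YY1 sites, were found in 18.6% of the windows of the 3 classes together and in 6.34% of all windows. TATAAA or TTTATA were found in 10% and in 13.6%. No window had overlapping matches of different motifs. Windows of 1 gene can overlap and count the same site more than once, as for Eif4e2, Eif4enif1 and Rpl35a. The shares are therefore of windows and not of genes. A match is a description of the letters and not of a bound site. The stretches below surround a match in genes that the strain comparison turns on, with the matching letters in capitals:
Rps3a1, chr3:86142659-86142688, minus strand: gattcttaaagCCGGAAGggcgaaagagca
Rps6, chr4:86857440-86857469, minus strand: ttaatctacgcCCGGAAGtaacgcccctct
Rps7, chr12:28635949-28635978, minus strand: tttcagaagagCTTCCGGtttccacccacc
Rpl41, chr10:128549206-128549235, minus strand: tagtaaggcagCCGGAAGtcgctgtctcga
Eef2, chr10:81176604-81176633, plus strand: ccggcgtcgaccTATAAAaggccgggcgtt
The first 4 hold the ETS-type letters, in Rps7 as the reverse complement, and Eef2 holds the TATA-type letters from 15 to 10 bases before the start. Genes with the same letters did not share 1 order of strains: in the levels that follow, the lowest strain was BL6 for Rps3a1 and BALB for Rps6.

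None of the 76 features passed the FDR of 10% between strains, where 10 features of the whole table did (0.13%), and the smallest adjusted p was 0.154. At an unadjusted p under 0.05 the F test selected 14 of the 76 (18.4%) and 1080 of all features (14%): 5 of 27 in the large subunit, 4 of 16 in the small subunit and 5 of 33 among the factors. At an FDR of 20% it selected Rpl7, Rpl8, Rps3a1 and Rps12, against 253 features of the table (3.29%). The distance from the highest to the lowest strain had a median of 0.48 over the 76 features and of 0.45 over all features. It ran from 0.10 for Rpl37a, a large-subunit protein, to 1.53 for Rpl8.

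No feature of the 76 passed the threshold in any strain against the other 4 either. Of all features, 5 were higher in BL10 (0.065%), 5 lower in BL6 (0.065%) and 1 higher in DBA (0.013%), and none was called in CBA or BALB. At an unadjusted p under 0.05, 10 of the 76 were lower in BL6 (6.64% of all features) and 4 higher (8.38%). In BALB 8 were higher (7.15%) and 3 lower (4.16%), and in CBA 8 were higher (5.08%) and 3 lower (6.42%). In BL10, 5 were lower (3.52%) and none higher (4.11%), and in DBA 3 were higher (3.52%) and 3 lower (2.12%). These counts were not stable when single animals were left out. Such a fit left 1 animal in a strain and fewer residual degrees of freedom than the 3 of the main fit. Without BALB 2 or DBA 1 the residual spread came only from the difference between the arrays of CBA against BL10. The counts of these fits are therefore not calls of strain differences. The count higher in BALB ran from 0 without BL6 1 to 31 without BALB 2, and the count lower in BL6 from 3 without BL10 1 to 27 without DBA 1. In CBA the count of higher features ran from 1 without BL10 1 to 18 without BL6 1, and that of lower ones from 0 without BL10 1 to 21 without BALB 2. The other strain counts ran from 0 to between 8 and 18. Of all features, 54.2% passed the FDR of 10% between strains without BALB 2 and 55.7% without DBA 1.

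The large-subunit features lay low in BL6 and high in BALB as a group, a description with no test. Their median strain difference was −0.18 in BL6, with 20 of 27 below 0, and 0.20 in BALB, with 21 of 27 above 0. The medians of all features were 0.039 in BL6 and 0.0013 in BALB. In CBA, BL10 and DBA the large-subunit medians were −0.0021, −0.061 and 0.00081. By animal, the median level of the 27 features was −0.14 in BL6 1 and −0.044 in BL6 2, and 0.17 in BALB 1 and 0.12 in BALB 2. DBA 1 lay at 0.078 and DBA 2 at −0.11, a wider gap than between the animals of any other strain. The gaps are not made alike, because only the DBA animals are joined to each other by arrays. The SD between animals within strains was 0.078. Without the array BL6 1 against DBA 2 the medians became −0.90 in BL6, −0.12 in BALB and 0.81 in CBA, and without BL6 1 they were −0.53, −0.014 and 0.43. Both fits lack the only used array with BL6 in Cy5. Their BL6 values therefore depend on the estimated dye effect, as those of CBA do. The BL6 median came close to 0 without BALB 1 (−0.025) and was −0.080 with equal array spreads. It was below 0 in each of these fits, but its size, the sign in BALB and the value in CBA depended on the arrays used.

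The small-subunit medians were smaller: −0.070 in BL6, 0.095 in BALB, 0.0090 in CBA, −0.065 in BL10 and −0.00039 in DBA, with 11 of 16 features below 0 in BL6 and 10 of 16 above 0 in BALB. The factors had medians of 0.048 in BL6 and 0.072 in BALB, and of −0.069 in CBA, −0.079 in BL10 and −0.013 in DBA, with 25 of 33 below 0 in BL10. Over the 76 features, 32 were below 0 in BL6 and above 0 in BALB, against 23.3% of all features, and 9 had the opposite signs, against 28.8%. In CBA and BL6, 28 of the 76 were above 0 in CBA and below 0 in BL6 (27.7% of all features), and 20 the reverse (39.5%). Of the 32 features low in BL6 and high in BALB, 15 were in the large subunit, 7 in the small subunit and 10 among the factors.

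**Figure D1:**
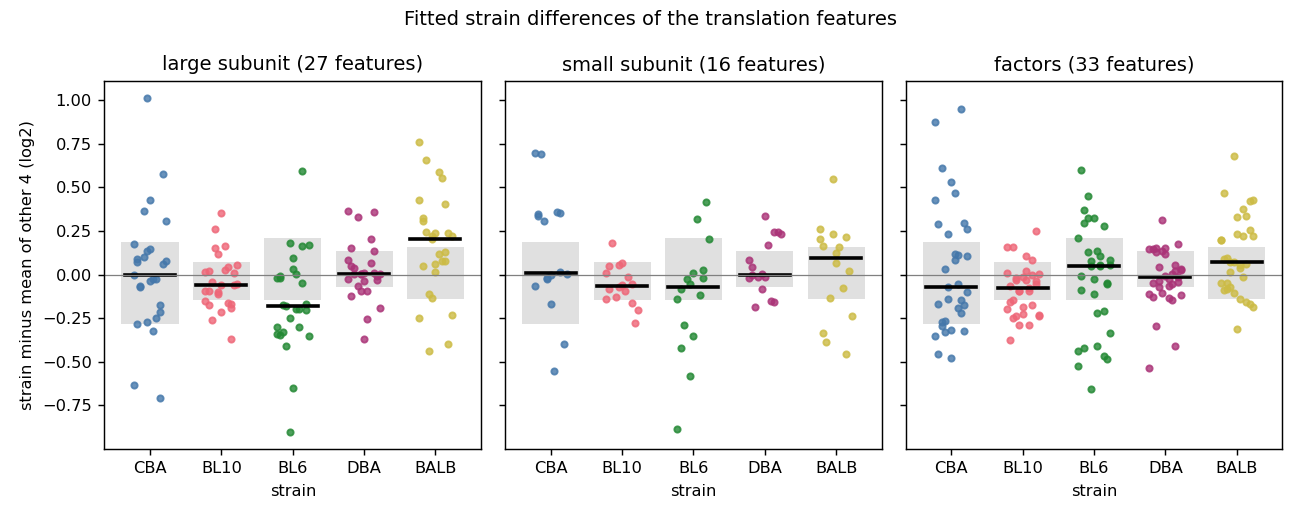
Strain difference (strain minus the mean of the other 4, log2) of each large-subunit, small-subunit and factor feature, with the class median as a black line and the middle 50% of all 7697 features as a grey box. The large-subunit points of BL6 centre on −0.18 and those of BALB on 0.20, while the factor medians lie between −0.079 and 0.072.

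Rpl7, a large-subunit protein, had the smallest p of the class (adjusted p = 0.154 in limma's moderated F test). Its animal levels were −0.32 and −0.52 in CBA, −0.05 and −0.02 in BL10, −0.22 and −0.21 in BL6, 0.51 and 0.25 in DBA and 0.77 and 0.58 in BALB. Both BALB animals were above the other 8 and both CBA animals below them. The strain differences were 0.76 (SE 0.16) in BALB and −0.63 (SE 0.24) in CBA. On the arrays, Rpl7 was higher in the animal set against BL6 where BL6 was in Cy3: the ratio was 1.05 for DBA 1 against BL6 1 and 1.11 for BALB 2 against BL6 2. Where BL6 1 was in Cy5 against DBA 2 the ratio was −0.14, and the estimated dye effect was 0.33. Both spots of Rpl7 gave nearly the same BALB difference, 0.80 and 0.71, and leaving out single animals moved it between 0.32 and 1.29.

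Rpl8, which lies near the peptidyl transferase centre of the large subunit, had the widest range of the 76 features. Its levels were 0.73 and 0.87 in CBA, 0.09 and 0.08 in BL10, −0.83 and −0.67 in BL6, −0.02 and −0.23 in DBA, and −0.13 and −0.16 in BALB, and neither the CBA nor the BL6 animals overlapped with any other. The strain differences were 1.01 (SE 0.22) in CBA and −0.90 (SE 0.15) in BL6 (adjusted p = 0.154). The spots did not agree. On the array BL6 1 against DBA 2 the first spot gave 0.18 and the second −2.19. From the first spots alone the CBA difference was 0.28, from the second spots alone 1.78. With all 10 arrays entered as labelled it was −0.087, so that its direction was not settled.

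Rpl9, next to Rpl7 and Rpl8 in the order of p among the large-subunit features, ran the other way. Its levels were −0.51 and −0.50 in CBA, −0.25 and −0.21 in BL10, 0.56 and 0.54 in BL6, 0.30 and 0.42 in DBA and 0.14 and 0.21 in BALB, so that no 2 strains overlapped. The differences were −0.71 (SE 0.21) in CBA and 0.59 (SE 0.14) in BL6 (adjusted p = 0.262). The CBA value was 0.0046 with all 10 arrays and 0.13 without the dye term. The other large-subunit features among the 6 with the smallest p were Rpl10 (BL6 −0.35, BALB 0.31), Rpl41 (BL6 −0.65, CBA 0.43) and Rpl27 (CBA 0.57, BALB −0.40). For Rpl10, a protein needed for joining the subunits, BL6 lay at −0.36 and −0.19, and all other animals were between −0.10 and 0.26. Rpl41 is the smallest protein of the ribosome, and its 2 BL10 animals were far apart, at 0.47 and −0.04. The dye effect of Rpl27 was −1.08, larger in size than any of its strain differences, and without the dye term its CBA difference became −1.39.

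The BALB animals stood above the other 8 for 17 of the 76 features, where 7.3% of all features did so, and 10 of the 17 were in the large subunit: Rpl5, Rpl6, Rpl7, Rpl10, Rpl10a, Rpl13, Rpl21, Rpl28, Rpl30 and Rpl36a. They stood below the other 8 for 5 features (6.28% of all). Rpl5, which carries the 5S rRNA into the large subunit, had a difference of 0.66 (SE 0.26) in BALB, Rpl21 of 0.59 (SE 0.22) and Rpl30 of 0.55 (SE 0.20). From the first and the second spots these were 0.50 and 0.77 for Rpl5, 0.56 and 0.58 for Rpl21, and 0.31 and 0.76 for Rpl30. For Rpl5 the animals of the other strains were far apart, with −0.64 in BL6 1 and 0.12 in BL6 2. The BL6 animals were below the other 8 for 12 features (7.3% of all), 5 of them in the large subunit (Rpl7a, Rpl8, Rpl10, Rpl28 and Rpl41), and above them for 7 (11.7%).

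Rplp0, the stalk base protein to which Rplp1 binds, is often used as a reference gene and had 2 features. The differences of NM_007475 lay between −0.26 in DBA and 0.16 in BL10, and those of U89419 between −0.18 in BL6 and 0.26 in BL10 (unadjusted p = 0.331 and 0.487). Rplp1 itself ran from −0.44 in BALB to 0.36 in CBA. Rpl3, which lines the peptidyl transferase centre, had −0.35 (SE 0.27) in BL6, with its animals at 0.10 and −0.68, and 0.83 without the array BL6 1 against DBA 2. The muscle paralogue Rpl3l was not among the features. The large-subunit features beyond the 6 with the smallest p had unadjusted p-values from 0.0696 (Rpl5) to 0.995 (Rpl37a).

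**Figure D2:**
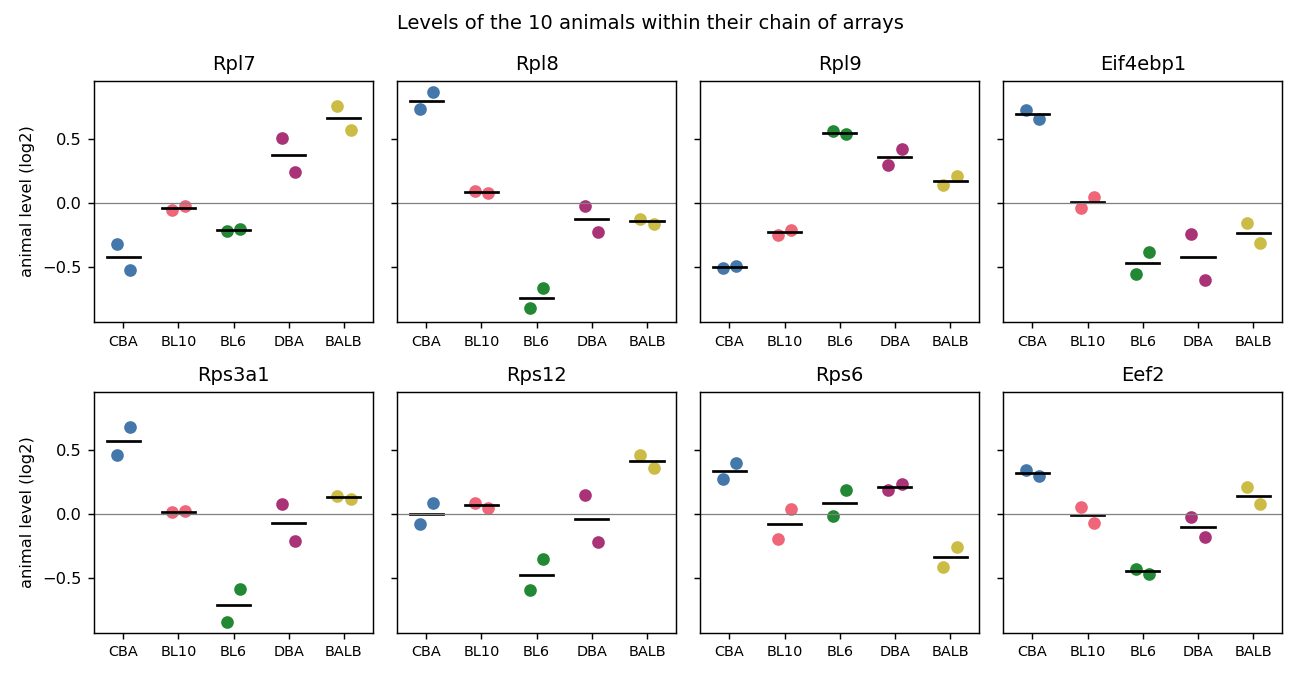
Level of each of the 10 animals (log2, relative to the animals joined to it by arrays) for 8 features, with the strain mean as a line; Eef2 is the feature U89415. The 2 points of a strain are close for Rpl9, and the strains form different orders: BALB is highest for Rpl7 and Rps12, BL6 lowest for Rpl8 and Rps3a1, and BALB lowest for Rps6.

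In the small subunit, Rps12 and Rps3a1 were lowest in BL6. The levels of Rps12, a protein of the small-subunit beak, were −0.08 and 0.08 in CBA, 0.08 and 0.05 in BL10, −0.60 and −0.36 in BL6, 0.14 and −0.22 in DBA and 0.46 and 0.36 in BALB. Both BL6 animals were below and both BALB animals above all others. The differences were −0.58 (SE 0.18) in BL6 and 0.55 (SE 0.18) in BALB (adjusted p = 0.197). The spots agreed, with −0.62 and −0.57 in BL6. As for Rpl7, the ratios were high on both arrays with BL6 in Cy3, 0.94 for DBA 1 against BL6 1 and 0.92 for BALB 2 against BL6 2, and −0.17 where BL6 1 was in Cy5.

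Rps3a1 had levels of 0.46 and 0.68 in CBA, 0.01 and 0.02 in BL10, −0.85 and −0.59 in BL6, 0.07 and −0.21 in DBA, and 0.14 and 0.12 in BALB. The CBA animals were highest and the BL6 animals lowest. The differences were −0.89 (SE 0.17) in BL6 and 0.70 (SE 0.24) in CBA (adjusted p = 0.154). On the array BL6 1 against DBA 2 its first spot gave −0.08 and its second −1.71, and the BL6 difference was −0.36 from the first and −1.44 from the second spots. Rps7 showed the same split on the same array, with −0.25 and −1.61, and its CBA difference of 0.69 (SE 0.21) was 0.11 from the first and 1.30 from the second spots.

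A gap of over 1 between the spots of a feature was seen on at least 1 array for 12 of the 76 features (15.8%) and for 16.5% of all features. On BL6 1 against DBA 2 it was seen for 4 of the 76, among them Rpl8, Rps3a1 and Rps7, and for 3.31% of all features. On BALB 2 against BL6 2 it was seen for 5, and on CBA 2 against BL10 2 for none.

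**Figure D3:**
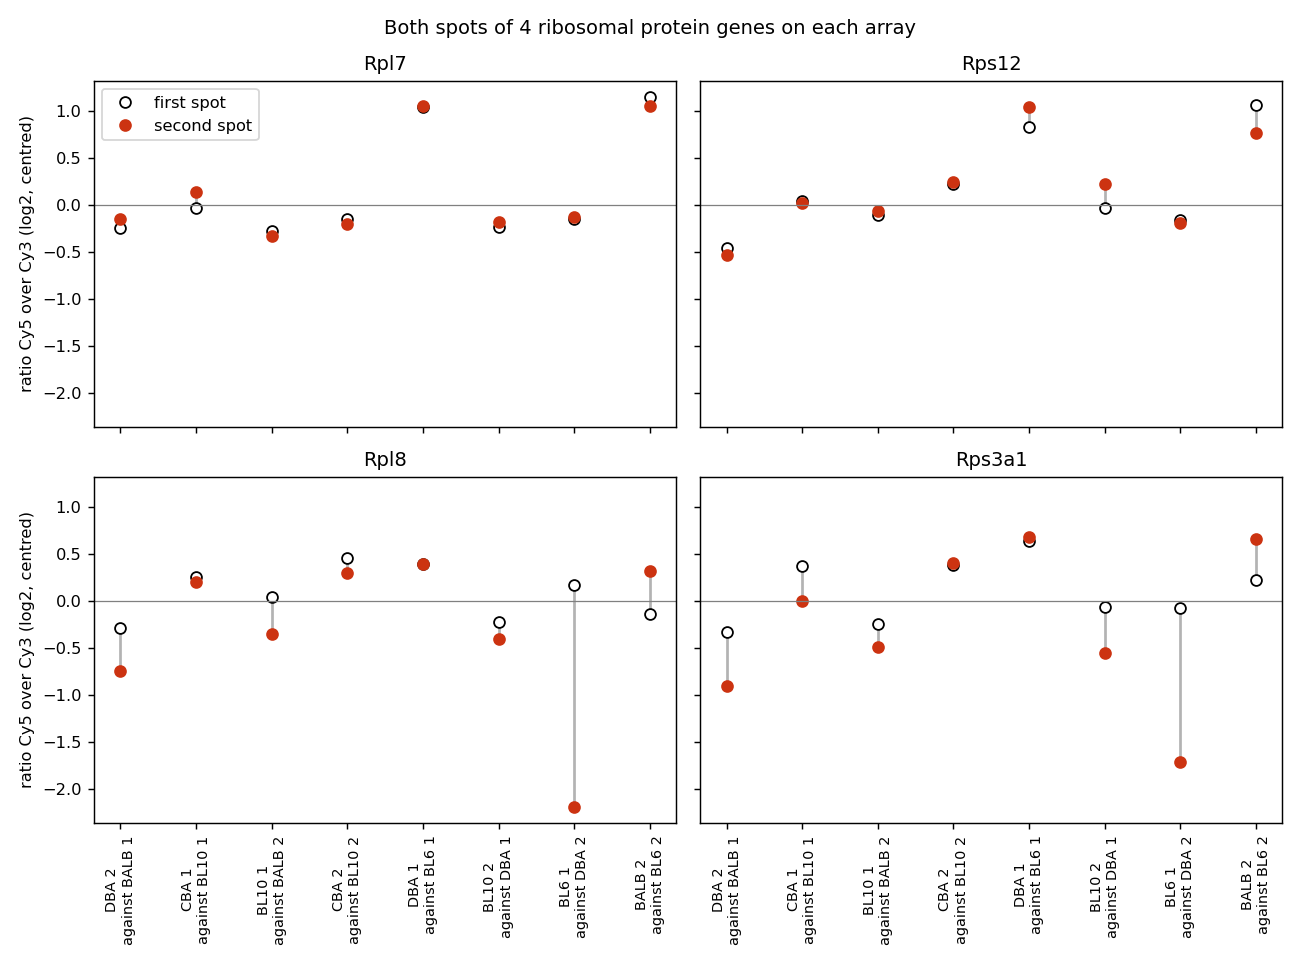
Centred ratio of Cy5 over Cy3 (log2) of the first spot (open) and the second spot (filled) of Rpl7, Rps12, Rpl8 and Rps3a1 on the 8 arrays, joined by a grey line. The spots of Rpl7 and Rps12 lie close on all arrays, while those of Rpl8 (0.18 and −2.19) and Rps3a1 (−0.08 and −1.71) part on BL6 1 against DBA 2.

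Rps6, the small-subunit protein that the S6 kinases phosphorylate, was lowest in BALB. Its levels were 0.27 and 0.40 in CBA, −0.20 and 0.04 in BL10, −0.02 and 0.19 in BL6, 0.19 and 0.23 in DBA and −0.42 and −0.26 in BALB, with both BALB animals below the other 8. The BALB difference was −0.46 (SE 0.15, adjusted p = 0.262 in the F test), and it was −0.63 from the first and −0.30 from the second spots. Rps3, a protein at the mRNA entry, had −0.42 (SE 0.16) in BL6, and its BL6 animals, at −0.30 and −0.41, were below the other 8. Rps29 had −0.35 (SE 0.19) in BL6 and 0.33 (SE 0.15) in DBA, and its DBA animals were apart, at 0.52 and 0.13. Rps16 was on the other side, with 0.42 (SE 0.14) in BL6 and −0.40 (SE 0.20) in CBA, beside a dye effect of 0.60, and without the dye term the BL6 value became −0.22.

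Rpsa, the small-subunit protein also known as the laminin receptor, had 2 features with small differences, from −0.24 to 0.23 for AJ279835 and from −0.058 to 0.066 for NM_011029. The second value hides a split, because its BALB difference was 0.57 from the first spots and −0.44 from the second. Rps2, at the mRNA entry of the small subunit, had −0.55 (SE 0.21) in CBA, beside a dye effect of 0.02. Its CBA animals, at −0.36 and −0.46, were below the other 8. The CBA difference of Rps2 was −0.28 from the first and −0.81 from the second spots. Rps4x, encoded on the X chromosome, and Rps26, which touches the mRNA at the exit, had 0.31 (SE 0.22) and 0.36 (SE 0.23) in CBA. Rps14, Rps18 and Rps28 were highest in BALB, with 0.23 (SE 0.16), 0.26 (SE 0.21) and 0.22 (SE 0.18), and Rps15 was lowest there, with −0.34 (SE 0.23). The small-subunit features beyond the 6 with the smallest p had unadjusted p-values from 0.0824 (Rps7) to 0.975 (NM_011029 of Rpsa).

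Among the factors, elongation factor Eef2, which moves the ribosome by one codon, was measured by 3 features, and all 3 were highest in CBA or BALB and lowest in BL6. For U89415 the levels were 0.34 and 0.30 in CBA, 0.05 and −0.08 in BL10, −0.43 and −0.47 in BL6, −0.02 and −0.18 in DBA and 0.21 and 0.08 in BALB, with both BL6 animals below the other 8. Its BL6 difference was −0.52 (SE 0.15, adjusted p = 0.262 in the F test). The BL6 differences of M76131 and U89416 were −0.41 (SE 0.16) and −0.33 (SE 0.24), and the BL6 animals of U89416 were apart, at −0.55 and −0.05. The 3 features were taken from the same 8 hybridisations and are not replicates of a strain. Eef2k, the kinase that blocks Eef2, had 0.45 (SE 0.15) in BL6, on the opposite side of Eef2, and without the dye term this became −0.22.

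Eef1a1, which delivers aminoacyl-tRNA, had 2 features that did not agree. X03688 gave 0.87 (SE 0.37) in CBA, −0.44 (SE 0.26) in BL6 and −0.54 (SE 0.21) in DBA, and M22432 gave −0.05 (SE 0.23), 0.06 (SE 0.16) and −0.15 (SE 0.13). The DBA animals of X03688 were at −0.25 and −0.94, and its CBA difference became −0.12 without the dye term. Eef1a2, the form found in adult muscle fibres, had differences from −0.23 (SE 0.12) in BL10 to 0.22 (SE 0.14) in BALB. The oligonucleotides of these paralogues were not compared for shared sequence. Eef1b2 and Eef1d, which reload Eef1a with GTP, were highest in BALB, with 0.33 (SE 0.18) and 0.26 (SE 0.16).

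**Figure D4:**
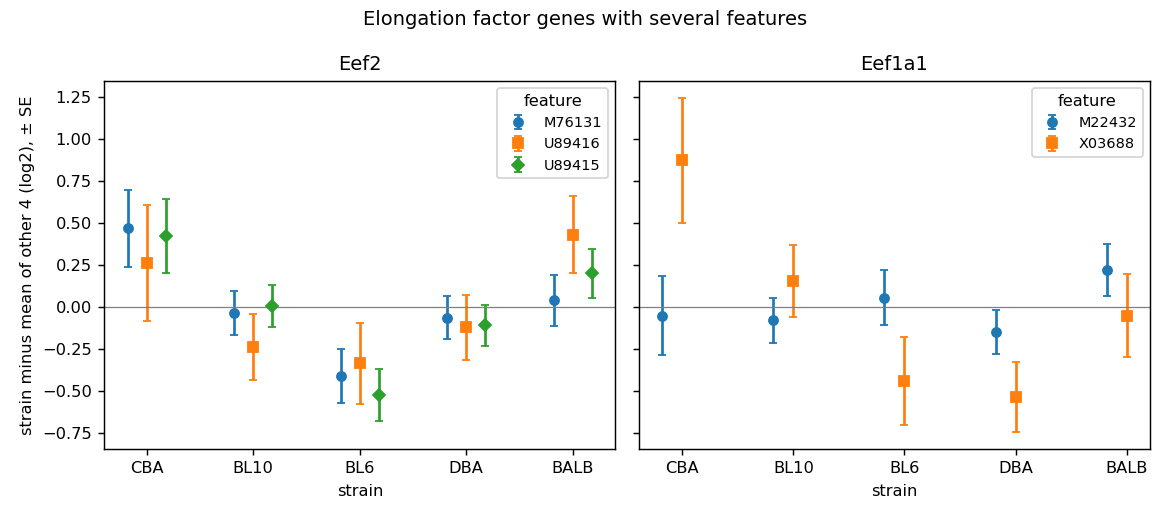
Strain difference (log2, strain minus the mean of the other 4) with its SE for the 3 features of Eef2 and the 2 features of Eef1a1, named by accession. The 3 features of Eef2 lie between −0.52 and −0.33 in BL6, while those of Eef1a1 part in CBA (0.87 and −0.05).

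The group of eIF4 factors and their binding proteins had 3 of 8 features at an unadjusted p under 0.05, where 14% of all features had such a p. The count was 1 of 10 for the elongation factors together with the kinase Eef2k. It was 1 of 4 for eIF2, its exchange factor and Eif2d. None of 5 for eIF3, of 4 eIF2 kinases and of 2 other initiation factors had such a p. Eif4ebp1, which binds the cap-binding protein Eif4e until mTOR phosphorylates it, had levels of 0.73 and 0.66 in CBA, −0.04 and 0.05 in BL10, −0.56 and −0.38 in BL6, −0.25 and −0.60 in DBA and −0.16 and −0.31 in BALB. The CBA difference was 0.95 (SE 0.26, adjusted p = 0.303 in the F test), beside a dye effect of −1.11. It became −0.25 with all 10 arrays and −1.09 without the dye term, so that its direction was not settled. Eif4e itself lay between −0.14 in BALB and 0.13 in BL6. Eif4e2, a cap-binding relative of Eif4e, had 0.53 (SE 0.23) in CBA beside the largest dye effect of the 76 features, −1.40. It became −0.019 with all 10 arrays, −0.25 with equal array spreads and −2.03 without the dye term, and its direction was not settled either. Eif4g2, a scaffold that works without the cap-binding protein, had 0.68 (SE 0.27) in BALB and −0.66 (SE 0.29) in BL6, with BL6 animals at −0.82 and −0.20 and DBA animals at 0.43 and −0.35. Its BALB difference became −0.26 without the array BL6 1 against DBA 2, and ran from 0.12 without BL6 1 to 1.97 without BALB 2. Eif4ebp2 was the feature for which both DBA animals, at 0.24 and 0.29, were above the other 8 (2.04% of all features). Its spots did not agree, with a DBA difference of 0.088 from the first and 0.52 from the second spots. On DBA 1 against BL6 1 they lay 1.51 apart.

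The factor with the highest value in BL6 was Eif2b4, a subunit of the exchange factor that recharges eIF2 with GTP. Its levels were −0.37 and −0.31 in CBA, −0.34 and −0.21 in BL10, 0.50 and 0.54 in BL6, 0.06 and 0.21 in DBA and 0.02 and 0.16 in BALB. Both BL6 animals were above all others. The BL6 difference was 0.60 (SE 0.15, adjusted p = 0.311 in the F test), with a dye effect of 0.06, and it stayed above 0 under every alternative that was run. The 4 kinases of eIF2 were among the features, Eif2ak1 (heme), Eif2ak2 (double-stranded RNA), Eif2ak3 (endoplasmic reticulum stress) and Eif2ak4 (amino acid lack), and their unadjusted p-values ran from 0.239 to 0.564. The 5 features of eIF3, the large scaffold of initiation, had p-values from 0.0649 (Eif3c, with 0.61 (SE 0.22) in CBA) to 0.732 (Eif3d). Eif3a was the feature with both BL10 animals, at −0.25 and −0.19, below the other 8 (2.33% of all features), and none had both above them (2.42%). Eif1a, which helps to find the start codon, had −0.49 (SE 0.24) in BL6, with animals at −0.08 and −0.78.

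Eif2s3x and Eif2s3y, the X and Y copies of the same eIF2 subunit, had differences from −0.07 (BALB and DBA) to 0.13 (BL6) and from −0.35 (CBA) to 0.21 (BL6). Eif6, which keeps free large subunits apart from small ones, ran from −0.22 in CBA to 0.28 in BL6. The helicases Eif4a1 and Eif4a2, which unwind the mRNA leader, were both lowest in CBA and highest in BL6, with −0.29 (SE 0.29) and −0.48 (SE 0.26) in CBA and 0.30 (SE 0.21) and 0.32 (SE 0.18) in BL6. The BL6 animals of Eif4a1 lay at 0.52 and close to 0. Eif3e and Eif3a were highest in BALB, with 0.47 (SE 0.21) and 0.37 (SE 0.14). Eefsec, the elongation factor for selenocysteine, Eif4enif1, which carries Eif4e into the nucleus, and Eif2d had no strain further than 0.23 from the mean of the others.

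The layout ties the CBA values to the estimated dye effect. As CBA was only in Cy5, an error in the dye effect enters the CBA difference with the opposite sign. A negative correlation between them is therefore in part built in. Across the 76 features the correlation between the CBA difference and the dye effect was −0.647, and across all features −0.583. Across the 76 features it was 0.5 for DBA, 0.421 for BALB, 0.251 for BL6 and −0.298 for BL10. Both quantities come from the same 8 arrays and features share them, and no p is given. Both CBA animals lay above the other 8 for 17 of the 76 features (15.5% of all) and below them for 9 (18.5%). Among the 17 were Eif4ebp1, Eif4e2, Rpl27, Rps7, Rps4x, Rpl23 and Eif2ak1, whose dye effects lay between −1.40 and −0.75. The dye effects of the rest of the 17 ran from −0.59 (Eif3c) to 0.20 (M76131 of Eef2). Dye and strain cannot be told apart within the single array of a CBA animal.

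**Figure D5:**
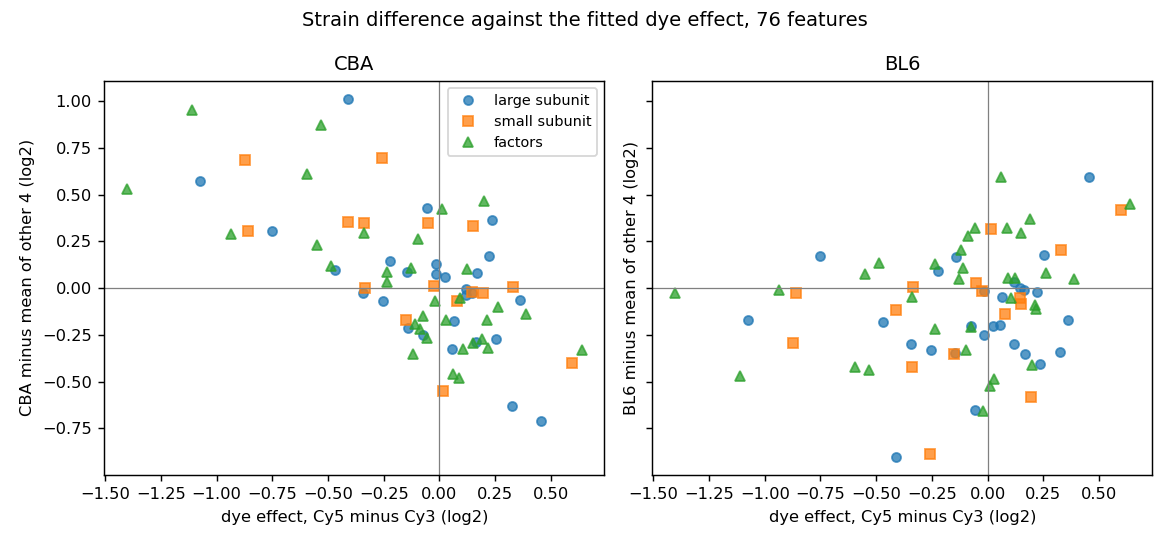
Strain difference (log2) of CBA and of BL6 against the fitted dye effect (log2, Cy5 minus Cy3) for the 76 features, by class. The CBA points fall from upper left to lower right (r = −0.647) and the BL6 points show a weaker slope of the opposite sign (r = 0.251).

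Genes outside the name rule that serve the same process were counted beside it, each list against the 10 features of the table past the FDR of 10% (0.13%) and the 14% at an unadjusted p under 0.05. Fau, a small-subunit protein with another symbol, had 0.42 (SE 0.19) in BALB and −0.33 (SE 0.20) in BL6. Of 9 mitochondrial ribosomal proteins 1 had an unadjusted p under 0.05 (Mrpl39, 0.90 in CBA), of 9 aminoacyl-tRNA synthetases none, and of 26 features of ribosome assembly and RNA polymerase I 1. The S6 kinase Rps6kb2 had differences from −0.05 to 0.08. A list of 15 features of termination, poly(A) binding and nascent chain handling, on which Tpt1 was also placed, had 2 with such a p. Only Tpt1, which is not a factor of these kinds, passed the FDR of 10% (adjusted p = 0.0624).

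Tpt1, the translationally controlled tumour protein, whose mRNA belongs to the same class as those of the ribosomal proteins, had levels of −0.27 and −0.79 in CBA, 0.28 and 0.33 in BL10, −0.94 and −0.94 in BL6, 0.99 and 0.39 in DBA and 1.39 and 0.93 in BALB. Its differences were −1.30 (SE 0.27) in BL6 and 1.30 (SE 0.26) in BALB, and BL6 lay lowest as for Rps12. Of 19 mTOR and growth features 4 had an unadjusted p under 0.05, Fkbp1a, Mtor, Mstn and Akt1, and all 4 were highest in CBA and lowest in BL6. Mtor had 0.58 (SE 0.22) in CBA and −0.52 (SE 0.15) in BL6 (adjusted p = 0.291).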

How the data were processed

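The deposited table lists 15552 spots per array as natural log ratios, Cy5 over Cy3. To make them, the authors quantified the scans in GenePix Pro, removed local background and applied variance stabilising normalisation (VSN) in R. The natural log was taken from VSN, and the direction from the dyes in the labels. Neither is stated for the table. No comparison with the levels in the study's supplement is reported here. Spots marked by the scanner software were not identified in the table, and signal over background is unknown.

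Ratios were converted to log2, duplicate spots (648 places apart) averaged, 80 features of a control oligonucleotide averaged to 1, and each array centred on its median. The 8 arrays were fitted in limma 3.58.1 (R 4.3.3) with strain and dye terms and the animal as a random effect (variance ratio of animal to array 0.446, estimated by restricted maximum likelihood), leaving 3 residual degrees of freedom. Animal levels used MASS 7.3.60.0.1. The steps were tested on simulated data. Of the 7776 features before the control features were averaged, 6831 had 1 gene symbol, 7 several and 938 none. Of the 76 features 74 were found in the RefSeq table of GRCm38.p6, the exceptions being Rpl5 and the feature U89419 of Rplp0.

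The features, the gene lists and the rule for named genes were chosen with earlier results of these data known. The rule named the 6 features with the smallest p in each class, the highest and lowest in each strain, genes with over 1 feature, and Eef2, Eef2k, Eif4e, Eif4ebp1, Eif2ak2, Rps6, Rplp0, Rpsa, Rpl3 and Eef1a2. Other genes were named after their values were seen. Alternatives were the identical arrays, centring, array spreads, quantile normalization, single spots, the dye term, independent arrays, the animal number, an ordinary test, an FDR of 5%, and single animals or 1 array left out. Figures were drawn with matplotlib 3.10.9 in Python 3.11.15.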

Additional observations from a re-analysis of the deposited data

How the results depend on the processing

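With no centring, with arrays as independent and at an FDR of 5%, no feature of the 76 passed the threshold and no named feature changed direction. With all 10 arrays entered as labelled the CBA difference became −0.087 for Rpl8, −0.25 for Eif4ebp1, −0.11 for Eif2ak2, −0.055 for M76131 of Eef2, −0.019 for Eif4e2 and 0.0046 for Rpl9, and the BALB difference of NM_011029 of Rpsa −0.023. The medians moved to 0.11 for the large subunit in BALB, 0.092 and 0.017 for the small subunit in DBA and BALB, and −0.0099 for the factors in CBA. With the identical values entered once as BL6 2 against CBA 1, the CBA difference was −0.059 for Rpl8, −0.13 for Eif4ebp1, −0.032 for Eif2ak2 and −0.058 for M76131 of Eef2, and the small-subunit medians were 0.11 in DBA and 0.019 in BALB. Entered as BALB 1 against CBA 2, they gave −0.0049 for Eif4ebp1 and −0.083 for Eif2ak2 in CBA, −0.036 for NM_011029 of Rpsa in BALB, medians of 0.11 for the large and 0.018 for the small subunit in BALB and of −0.0033 for the factors in CBA, and 1 feature past the FDR of 10% in BL6. Which label is right was not tested.

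With equal array spreads 3 features passed the FDR of 10% between strains (3.95% of the 76, 2.55% of all), which were Rpl7, Rpl8 and Rps3a1. The medians were −0.080 for the large subunit in BL6, −0.12 and 0.039 for the factors in CBA and DBA, and Eif4e2 was −0.25 in CBA. With quantile normalization 2 passed (Rpl8 and Rps3a1, 1.73% of all features) and 2 in BL6, with medians of 0.098 for the large subunit in BALB, 0.13 for the small subunit in CBA, and −0.015 and −0.0091 for the factors in CBA and BL6. From the first spots alone 6 features had an unadjusted p under 0.05, with medians of −0.087 (large subunit) and 0.034 (factors) in CBA. From the second spots alone 1 feature (Rpl8) passed the FDR of 10% and 2 in BL6, the factor median in CBA was −0.019 and NM_011029 of Rpsa was −0.44 in BALB. The ordinary test without shared spread left 8 features at an unadjusted p under 0.05.

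Without the dye term 5 had such a p. The CBA differences became −2.03 for Eif4e2, −1.39 for Rpl27, −1.09 for Eif4ebp1, −0.31 for Eif2ak2, −0.12 for X03688 of Eef1a1 and 0.13 for Rpl9. Eef2k and Rps16 became −0.22 each in BL6, Eif4e 0.24 in BALB and U89419 of Rplp0 −0.020 in BL10. The small-subunit medians were 0.11 in DBA and 0.23 in BALB, and the factor medians −0.13 in CBA, −0.16 in BL10, 0.15 in BL6, 0.069 in DBA and 0.16 in BALB.

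Whether the animal number of the labels paired the animals was not settled. The deviations of same-numbered animals correlated at −0.708 to 0.75 between strains, over 0.1 in 7 of 10 pairs of strains. Animal levels are relative to the CBA, BL10, BL6 and BALB animals joined by arrays, which ties these deviations to each other. The correlations therefore cannot decide the question. With the number as a replicate block the factor median in CBA was −0.010, the count higher in DBA at an unadjusted p under 0.05 was 5 in place of 3, and no count of the 76 at the FDR of 10% and no direction of a named feature changed. Of all features, 57 passed between strains (0.741%), against 10 without the block.

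An alternative added after the data were seen left out the array BL6 1 against DBA 2. It is the only used array with BL6 in Cy5, so that BL6 values without it depend on the estimated dye effect. The fit also left fewer residual degrees of freedom than the 3 of the main fit. Then 27 of the 76 features passed the FDR of 10% between strains, and 25.2% of all features did, with 36 at an unadjusted p under 0.05. By strain, 3 passed in CBA, 8 in BL10, 24 in BL6 and 1 in DBA. The medians in CBA, BL10, BL6 and BALB were 0.81, 0.18, −0.90 and −0.12 for the large subunit, 0.82, 0.20, −0.60 and −0.19 for the small subunit and 0.39, 0.083, −0.42 and −0.071 for the factors. In BALB, M22432 of Eef1a1 became −0.048, U89416 of Eef2 −0.32, Eif4g2 −0.26, AJ279835 of Rpsa 0.38 and NM_011029 of Rpsa −0.21. In CBA, Eif2ak2 became −0.40 and Eif4e2 −0.013, and Rpl3 became 0.83 in BL6.

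Leaving out 1 animal with all its arrays could be fitted for 9 of 10 animals. Without DBA 2 the strain and dye terms could not be separated. The 9 fits each left 1 animal in a strain and fewer residual degrees of freedom than the 3 of the main fit. Their counts past a threshold are therefore not calls of strain differences. The count past the FDR of 10% between strains ran from 0 to 47 without DBA 1, where 55.7% of all features passed. By strain it ran from 0 to 23 in CBA, 9 in BL10, 36 in BL6, 8 in DBA and 33 in BALB. The count at an unadjusted p under 0.05 ran from 8 without BL10 2 to 47. In CBA, BL10, BL6, DBA and BALB, the large-subunit medians ran from −0.43 to 0.43, −0.23 to 0.16, −0.53 to −0.025, −0.18 to 0.17 and −0.014 to 0.54. Those of the small subunit ran from −0.13 to 0.83, −0.19 to 0.20, −0.67 to −0.041, −0.20 to 0.16 and −0.10 to 0.31, and those of the factors from −0.16 to 0.29, −0.18 to −0.035, −0.16 to 0.087, −0.14 to 0.040 and 0.012 to 0.25. Features that changed direction ran from −0.59 without BL6 1 to 0.58 for Eif2ak2 in CBA, from −0.98 to 0.17 without BL6 1 for AJ279835 of Rpsa in BALB, and from −0.31 without BL6 1 to 0.49 for NM_011029 of Rpsa in BALB, which was −0.014 without DBA 1. NM_007475 of Rplp0 ran from −0.51 to 0.045 without BALB 1 in DBA, and X03688 of Eef1a1 from −0.053 without BALB 2 to 2.51 in CBA. With 2 animals a strain and no brightness in the table, how far spot signal limits these values is unknown.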
